A study of Malus domestica with 15 samples.

Results

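Of the 30310 apple loci with a gene model that passed the filters on level, 27 (0.0891%) stood well above harvest in every stored group. These were the 4 groups of stored fruit, with and without 1-MCP. Within each treatment the 27 loci changed by less than 1 log2 unit over the shelf-life period. They were found in the skin (exocarp) of apple fruit, Malus domestica. The members were chosen by the group values themselves: with log2(FPKM + 1) as the scale, each stored group lay at least 1.5 above harvest, and within each treatment the values before and after shelf life differed by less than 1. FPKM is a transcript level, in which fragment numbers are divided by transcript length and by the size of the library. A difference of 1.5 corresponds to a 2.828-fold higher FPKM + 1. Because these values chose the loci, the rises are given as a description and were not tested.

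The series holds 15 libraries in 5 groups of 3 labelled biological replicates. Harvest fruit were untreated and not stored (T0). Control fruit were stored cold for 2 months without 1-MCP and sampled then (T2_CTRL) or 7 days of shelf life later (T2+7_CTRL). Treated fruit received 1-MCP at 0.7 µl/L and were sampled at the same 2 times (T2_MCP, T2+7_MCP). The sampling straight from the cold is called 2 months below, and the later one shelf life. Every stored group had been through the cold, and no harvest fruit received 1-MCP. Cold, time in storage and, for treated fruit, 1-MCP therefore cannot be told apart in the rise over harvest. The labels used here name no cultivar, orchard or number of fruit per library.

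Apple is a climacteric fruit: a burst of ethylene accompanies ripening and drives softening, aroma and colour change. 1-MCP (1-methylcyclopropene) is a gas that occupies ethylene receptors and blocks the response, and it is applied to harvested apples to delay ripening and to limit superficial scald, a browning of the skin that develops after cold storage. Stored apple skin is exposed to low temperature, to the passage of time and to the fruit's own ethylene. Transcripts that were higher than at harvest in stored fruit both with and without 1-MCP form the subset described here. The values used here do not measure ethylene perception.

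The table gave 1 FPKM value per group, without a value for any library. No SD, SE, p-value or replicate check exists for any value below, and the depth of the libraries is unknown. The file pairs no locus with a gene name, function or position, and 0 of the 29 gene models carried by the 27 loci were found in the RefSeq gene table of assembly GDT2T_hap1. That gene table uses no MDP identifiers, so the missing match does not say whether the genes are in the assembly. The loci are therefore given by identifier: CUFF numbers are assembled loci, and MDP numbers are gene models. For the same reason skin markers could not be read, and the lists for cold acclimation, ethylene, cell wall, wax and senescence could not be filled. In whole skin, fewer cells of a type and less RNA per cell cannot be told apart. The libraries do not mark strand, so reads from an antisense partner count towards a locus. Whether a locus shares reads with a near-identical copy was not tested.

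The subset was small at every step. At the end of cold storage, 1066 loci (3.52%) in control fruit and 527 (1.74%) in 1-MCP fruit were at least 1.5 above harvest. After shelf life there were 1150 (3.79%) in control and 303 (1.00%) in 1-MCP fruit. Both times together kept 714 loci (2.36%) in control and 159 (0.525%) in 1-MCP fruit, and 51 loci (0.168%) passed in all 4 stored groups. The shelf-life condition then removed 24 of the 51, of which 10 moved by 1 or more in control fruit alone, 7 in 1-MCP fruit alone and 7 in both.

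Taken from each treatment's side, the 27 loci were 5.65% of the 478 loci that were raised and steady in control fruit and 19.1% of the 141 loci that were raised and steady in 1-MCP fruit. Both lists use the same harvest value. For comparison, 0.525% of all 30310 loci were at least 1.5 above harvest at both times in 1-MCP fruit, and 2.36% in control fruit. These 2 shares do not include the shelf-life condition. Over the control list, the median log2 difference of 1-MCP fruit from harvest was 0.12 at 2 months and 0.07 after shelf life. Over the 1-MCP list, the median of control fruit was 1.21 and 0.97 at these times. Over all 30310 loci the medians were -0.05 and -0.16 in 1-MCP fruit, and -0.12 and -0.36 in control fruit. Of the 478 loci, 342 failed only because both 1-MCP values lay less than 1.5 above harvest, and of the 141 loci, 53 failed only through both control values. The mirrored conditions, with stored groups at least 1.5 below harvest, were met by 334 loci (1.10%). That count was 251 with each column scaled by its 75th percentile, 278 with trimmed mean scaling and 263 with quantile normalization, beside 35, 34 and 36 loci in the raised direction.

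**Figure D1:**
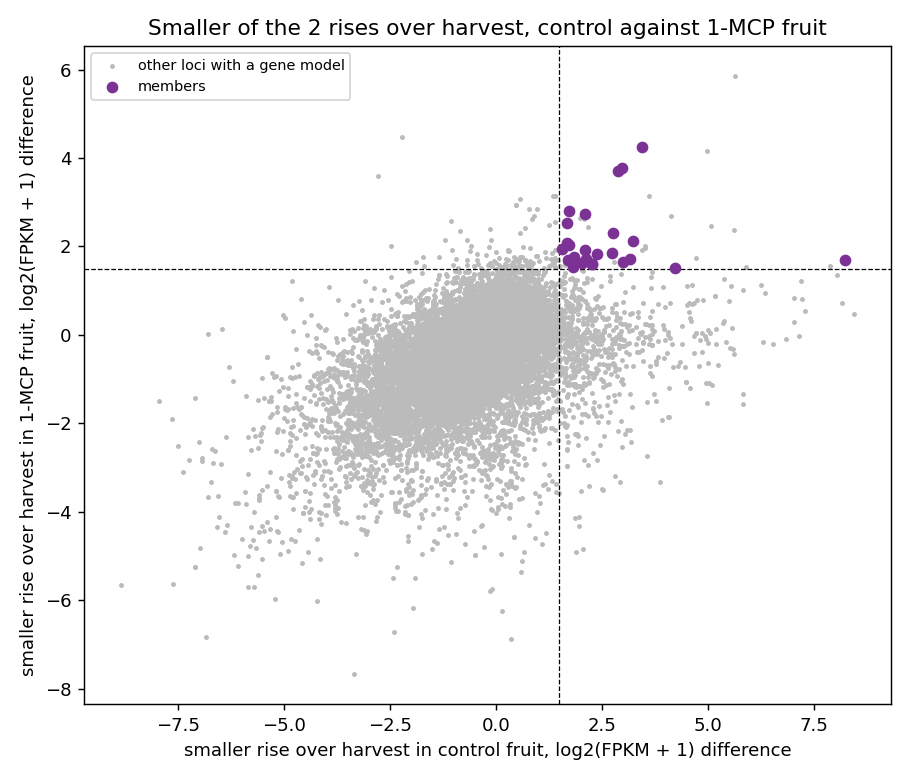
For each of the 30310 loci, the smaller of its 2 log2(FPKM + 1) differences from harvest in control fruit (horizontal axis) is plotted against the smaller of its 2 in 1-MCP fruit (vertical axis); dashed lines mark 1.5. The 27 members (purple) lie in the sparse upper right corner, and the grey points there are the 24 loci left out by the shelf-life condition.

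By their medians, the members went from a middling level at harvest to a high one in storage. Their median was 8.01 FPKM at harvest, against 11.1 FPKM for all 30310 loci. Their median percentile among these loci was 41.0, with single members from 0.25 to 87.2. In control fruit the members' median was 55.0 FPKM at 2 months (median percentile 86.2) and 64.7 FPKM after shelf life (median percentile 89.5). In 1-MCP fruit it was 49.1 FPKM (median percentile 84.8) and 32.1 FPKM (median percentile 79.1). The median of all 30310 loci was 9.79, 7.98, 10.3 and 9.19 FPKM in the same 4 groups.

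The median log2 difference of the members from harvest was 2.28 in control fruit at 2 months and 2.17 after shelf life. With 1-MCP the corresponding medians were 2.13 and 2.04. For all loci the medians were -0.12, -0.36, -0.05 and -0.16. Scaling the columns by the 75th percentile brought the control median of all loci after shelf life from -0.36 to -0.05, and the members' medians to 2.43, 2.47, 2.17 and 2.21. The smallest of a member's 4 rises ranged from 1.52 to 3.46. In 18 of the 27 it was below 1.8, so most members sit near the threshold, and 6 members reached 2 in every stored group. The group that set the smallest rise was 1-MCP after shelf life in 11 members, 1-MCP at 2 months in 7, control at 2 months in 6 and control after shelf life in 3. The matching shares over all loci were not computed, so nothing is read from these counts. Over all loci the share at least 1.5 above harvest also differed by group. It was 1.00% in 1-MCP fruit after shelf life and 3.79% in control fruit after shelf life.

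**Figure D2:**
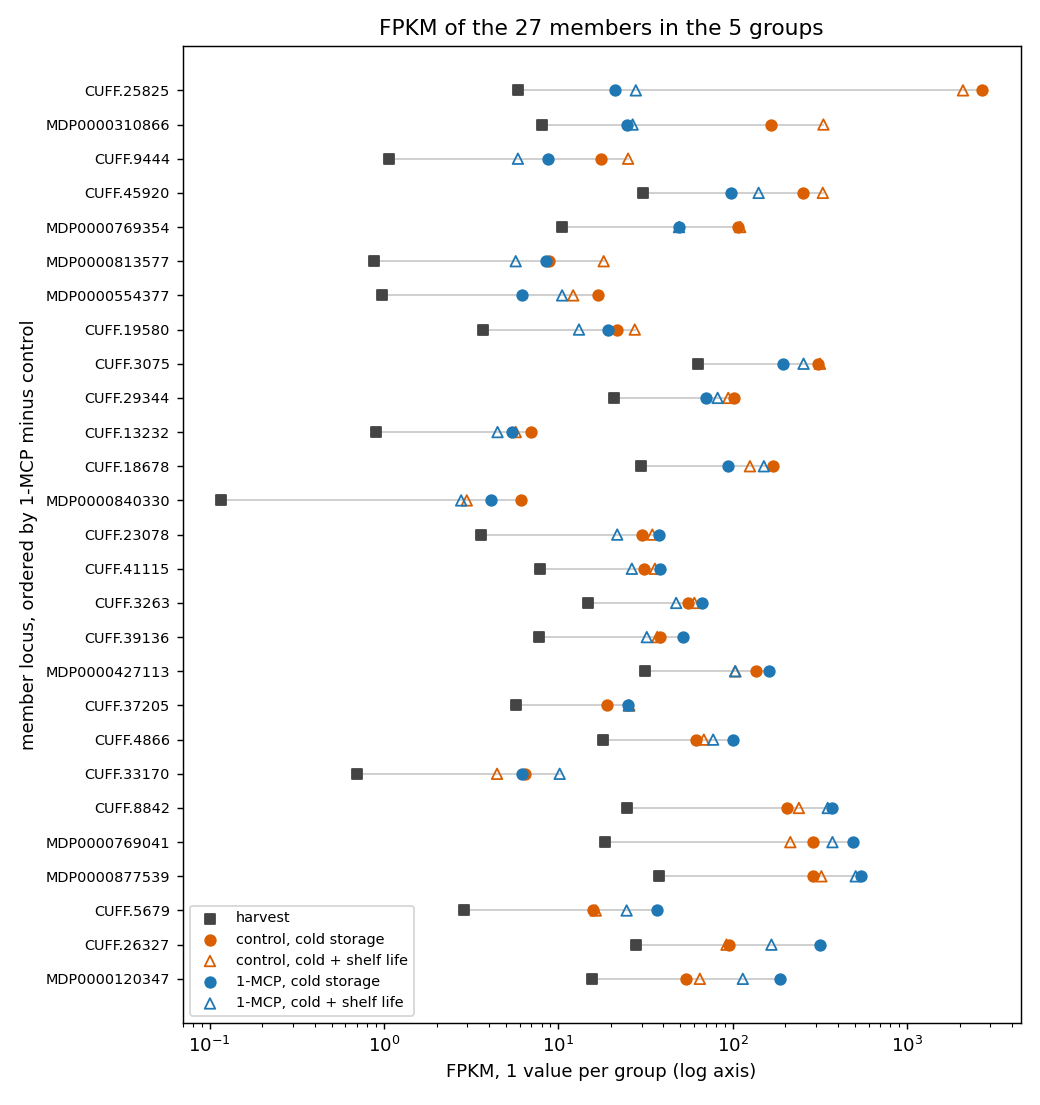
FPKM of the 27 members (rows) in the 5 groups on a log axis; squares are harvest, circles the end of cold storage, open triangles the end of shelf life, orange is control and blue 1-MCP, with 1 value per group and no error. Harvest is the lowest value in each row. Rows are ordered by the 1-MCP minus control difference, and control values lie far to the right only in the top rows, led by CUFF.25825 at 2696 FPKM.

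3 loci stood out for a large rise that was present in every stored group. MDP0000769041 was at 18.5 FPKM at harvest, 286.9 and 213.5 FPKM in control fruit before and after shelf life, and 485 and 372 FPKM in 1-MCP fruit. Its smallest rise (3.46) was the largest among the members. Its FPKM was 15.5 and 11.5 times the harvest value in control fruit, and 26.2 and 20.1 times in 1-MCP fruit.

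CUFF.8842 (MDP0000744887) was at 24.8 FPKM at harvest, 203 and 239 FPKM in control fruit, and 372 and 349.8 FPKM in 1-MCP fruit, with a smallest rise of 2.99. MDP0000877539 was at 37.9 FPKM at harvest, 286 and 322 FPKM in control fruit, and 545 and 506 FPKM in 1-MCP fruit, with a smallest rise of 2.88. It had the second highest mean FPKM of the 27. In each of the 3 loci the 1-MCP value was above the control value at both times, by 0.55 to 0.93 log2 units, and within each treatment the values before and after shelf life differed by at most 0.42. These are the members whose profile matches a strong rise in both treatments most plainly.

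The other members with a smallest rise of at least 2 were CUFF.23078 (MDP0000366906), MDP0000769354 and CUFF.5679, which carries MDP0000513157 and MDP0000093999. CUFF.23078 was at 3.60 FPKM at harvest and at 30.1, 34.5, 37.6 and 21.7 FPKM in control cold, control shelf life, 1-MCP cold and 1-MCP shelf life. CUFF.5679 was at 2.87 FPKM at harvest and at 15.7, 16.4, 36.8 and 24.6 FPKM in the same groups. Both were at lower levels than the 3 loci above in every group.

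At the other end, the summed level of the subset in control fruit rested on 1 locus. The 27 loci summed to 393 FPKM at harvest, 5195 and 4796 FPKM in control fruit, and 3032 and 2649 FPKM in 1-MCP fruit. Without CUFF.25825 the sums were 388 FPKM at harvest, 2498.5 and 2711 FPKM in control fruit, and 3011 and 2622 FPKM in 1-MCP fruit. The ratio to harvest then went from 13.2 to 6.45 and from 12.2 to 6.99 in control fruit, and from 7.71 to 7.77 and from 6.73 to 6.76 in 1-MCP fruit. These ratios of the other 26 loci do not show that single loci matched between treatments. They leave out the locus with the largest control excess, and abundant loci with opposite differences offset each other in the sums. At the end of cold storage MDP0000877539 was at 286 FPKM in control and 545 FPKM in 1-MCP fruit. MDP0000310866 was at 166 FPKM in control and 24.9 FPKM in 1-MCP fruit. The sums were not recomputed with the scalings.

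CUFF.25825 (MDP0000199152) met the conditions in both treatments, but its size did not match between them. It was at 5.86 FPKM at harvest, 2696 and 2085 FPKM in control fruit, and 21.1 and 27.8 FPKM in 1-MCP fruit. This is 460.4 and 356 times harvest in control fruit and 3.60 and 4.74 times harvest with 1-MCP. The control value was 128 times the 1-MCP value at 2 months and 75.1 times after shelf life, a log2 difference (1-MCP minus control) of -6.93 and -6.18.

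MDP0000310866 was also far higher in control than in 1-MCP fruit, with 8.01 FPKM at harvest, 166 and 330.4 FPKM in control fruit, and 24.9 and 26.6 FPKM in 1-MCP fruit. Its 1-MCP minus control difference was -2.69 and -3.58. Its smallest rise (1.52) was the smallest of all members, and its shelf-life difference in control fruit (0.99) lay just under the limit of 1. It was not a member under any of the 3 scalings. For these 2 loci the name "induction shared by both treatments" holds only by the threshold, since most of the rise was in control fruit.

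Other loci higher in control fruit differed less. CUFF.45920 (MDP0000153379) was at 30.6 FPKM at harvest, 252 and 328 FPKM in control fruit, and 98.2 and 140.5 FPKM in 1-MCP fruit. MDP0000769354 was at 10.5 FPKM at harvest, 107 and 110.2 FPKM in control fruit, and 49.1 FPKM in 1-MCP fruit at both times. With CUFF.25825 and MDP0000310866 they made up the 4 members (14.8%) at which 1-MCP fruit were lower by at least 1 log2 unit at both times, against 5.52% of all 30310 loci. With each of the 3 scalings tried there were 5.

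A further 4 loci were lower by at least 1 in 1-MCP fruit at a single time. At the end of cold storage this was MDP0000554377, with 16.8 FPKM in control and 6.16 FPKM in 1-MCP fruit. After shelf life it was CUFF.9444 (MDP0000506359) with 25.1 against 5.86 FPKM, MDP0000813577 with 18.2 against 5.69 FPKM, and CUFF.19580 (MDP0000258979) with 27.4 against 13.1 FPKM. Each of these 4 was below 4 FPKM at harvest, at 0.976, 1.07, 0.873 and 3.68 FPKM in the order named. In all, 5 members (18.5%) were lower by at least 1 with 1-MCP at 2 months and 7 (25.9%) after shelf life, against 8.03% and 8.37% of all loci. CUFF.19580 lay at the limit, with a difference of -1.01.

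Fewer members were higher with 1-MCP by that margin. There were 3 at 2 months (11.1%, against 8.90% of all loci) and 1 after shelf life (3.70%, against 12.7%), and 0 members at both times, against 5.68% of all loci. MDP0000120347 had the largest difference, 1.79 and 0.81, with 15.5 FPKM at harvest, 53.6 and 64.7 FPKM in control fruit, and 187 and 114 FPKM in 1-MCP fruit. CUFF.26327 (MDP0000260404) followed with 1.73 and 0.85, at 28.0 FPKM at harvest, 94.6 and 91.9 FPKM in control fruit, and 317 and 166 FPKM in 1-MCP fruit. In both loci the treatments lay closer together after shelf life, where the 1-MCP value was lower than at 2 months.

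CUFF.5679 was the third member higher with 1-MCP at 2 months, by 1.18. CUFF.33170 (MDP0000321078) was the member higher after shelf life, by 1.04. It was at 0.700 FPKM at harvest, 6.43 and 4.45 FPKM in control fruit, and 6.22 and 10.2 FPKM in 1-MCP fruit. With each of the 3 scalings its difference fell below 1, and the count of such members after shelf life was 0.

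The remaining 15 members (55.6%) differed between treatments by less than 1 log2 unit at both times. A difference of at least 1 in size was present at 8 members (29.6%) at the end of cold storage, against 16.9% of all loci. After shelf life it was present at 8 members (29.6%), against 21.1% of all loci. At each time the treatments thus differed by that margin at a larger share of members than of all loci, which was not tested. The 15 members include MDP0000769041, CUFF.8842, MDP0000877539 and CUFF.23078. CUFF.37205 (MDP0000356410) had the narrowest spread over the stored groups, a range of 0.41, with 5.73 FPKM at harvest, 18.9 and 25.5 FPKM in control fruit, and 24.9 and 25.3 FPKM in 1-MCP fruit. CUFF.3263 (MDP0000910069) came next with a range of 0.48, at 14.8 FPKM at harvest, 55.0 and 60.1 FPKM in control fruit, and 66.5 and 47.3 FPKM in 1-MCP fruit. The stored groups of these loci lie close together.

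Further loci of this kind at higher levels were CUFF.3075 (MDP0000265269), CUFF.29344 (MDP0000151903), MDP0000427113 and CUFF.18678, which carries MDP0000833274 and MDP0000348547. CUFF.3075 had the highest harvest level of the subset, 62.9 FPKM, and stood at 307 and 316 FPKM in control fruit and 193 and 254 FPKM in 1-MCP fruit. CUFF.29344 was at 20.9 FPKM at harvest and between 70.2 and 101 FPKM in the stored groups. MDP0000427113 was at 31.3 FPKM at harvest and between 103.0 and 161 FPKM in storage.

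CUFF.18678 was at 29.8 FPKM at harvest and between 94.2 and 170.2 FPKM in storage. CUFF.4866 (MDP0000841490) was at 18.0 FPKM at harvest and between 61.7 and 100.5 FPKM in storage. CUFF.39136 (MDP0000300728) was at 7.77 FPKM at harvest and between 32.1 and 51.7 FPKM in storage, and CUFF.41115 (MDP0000131104) at 7.88 and between 26.3 and 38.0 FPKM. The widest of these 4 ranges, in FPKM, was that of CUFF.18678.

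The last 2 of the 15 were near the floor of the table at harvest. CUFF.13232 (MDP0000758919) was at 0.905 FPKM at harvest and 6.97, 5.69, 5.39 and 4.47 FPKM in control cold, control shelf life, 1-MCP cold and 1-MCP shelf life. MDP0000840330 was at 0.116 FPKM at harvest and 6.11, 2.98, 4.13 and 2.77 FPKM in the same groups. In all, 5 members were below 1 FPKM at harvest (18.5%, against 2.89% of all loci); the harvest value is part of the rule, so nothing is read from this share. With unknown depth the precision of such values cannot be given.

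**Figure D3:**
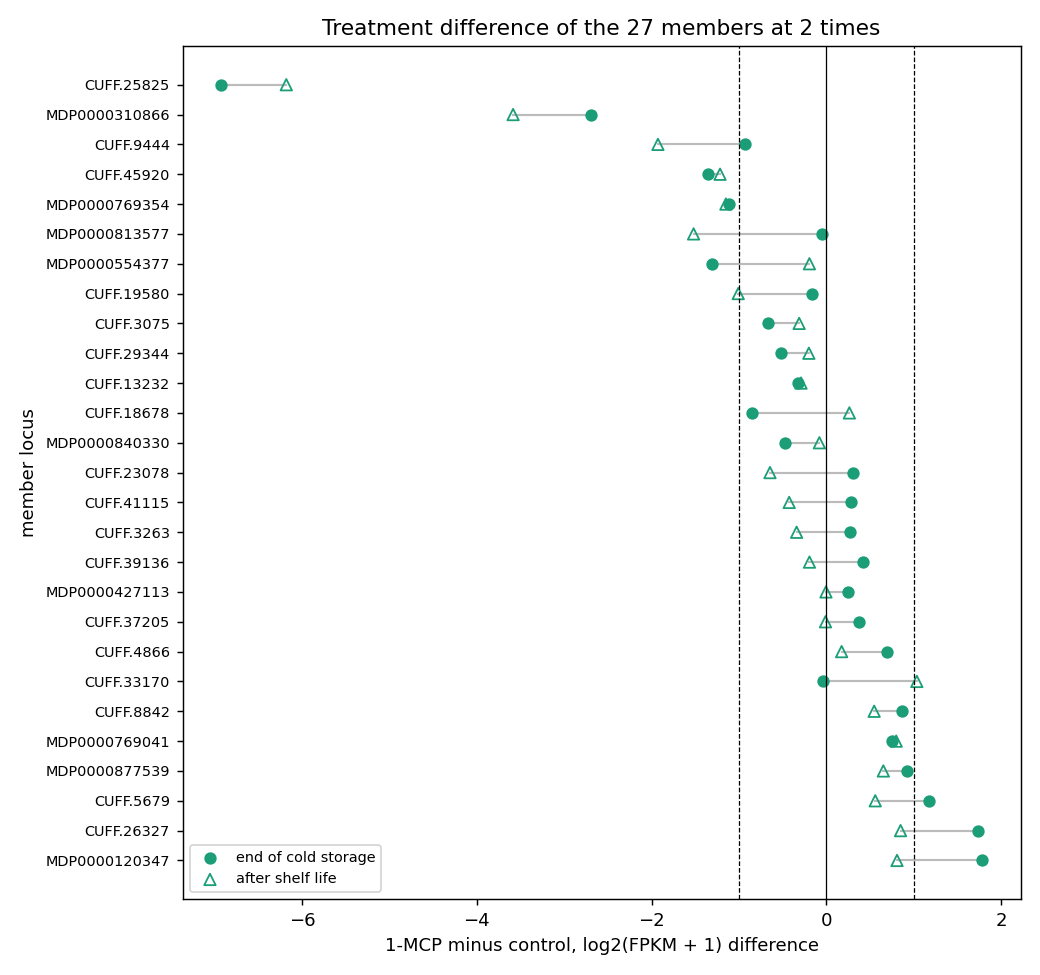
1-MCP minus control difference of log2(FPKM + 1) for each of the 27 members (rows) at 2 months (filled circles) and after shelf life (open triangles); dashed lines mark 1 in either direction, and no error exists. CUFF.25825 and MDP0000310866 lie far to the left at both times, 15 members stay within the lines, and no member lies beyond 1 on the right at both times.

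Across the 27, the median 1-MCP minus control difference was -0.04 at 2 months and -0.19 after shelf life, beside 0.09 and 0.23 over all 30310 loci. With the 3 scalings the members' median ranged from -0.23 to -0.14 and from -0.48 to -0.32 at the 2 times, and that of all loci from -0.08 to -0.004 and from -0.02 to 0.08. The median at 2 months turned to 0.25 when a mean of at least 5 FPKM was asked for or loci listed at 0 were kept. 12 members (44.4%, against 27.3% of all loci) were lower with 1-MCP at both times and 7 (25.9%, against 49.3%) were higher at both times. Another 6 (22.2%, against 7.80%) were higher with 1-MCP at 2 months and lower after shelf life, and 2 (7.41%, against 15.6%) were the reverse. These differences are built from the values that chose the members and were not tested.

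The 4 stored values of a member lay within 1 log2 unit of one another in 14 members (51.9%), against 62.2% of all loci. The range was 2 or more in CUFF.25825 (6.93) and MDP0000310866 (3.68) and below 2 in the others. Among the 4 stored groups, the highest value was in 1-MCP fruit at 2 months in 12 members (44.4%, against 36.5% of all loci) and in shelf-life control fruit in 8 (29.6%, against 13.8%). It was in control fruit at 2 months in 6 (22.2%, against 28.7%), and in 1-MCP fruit after shelf life in 1 (3.70%, against 21.0%), CUFF.33170. The stored values chose the members, and these shares were not recomputed with the scalings, so nothing is read from them.

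The shelf-life period was bounded by the rule, which allows differences below 1, and within that bound control and 1-MCP fruit gave different counts. In control fruit 16 members (59.3%) were higher after shelf life, against 28.9% of all loci, with a median difference of 0.06. In 1-MCP fruit 9 members (33.3%) were higher, against 34.9% of all loci, with a median of -0.38. The medians of all loci were -0.24 and -0.13. With the 3 scalings 19 members were higher in control fruit and 10 to 12 in 1-MCP fruit, with medians of 0.19 to 0.27 and -0.31 to -0.26.

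A difference of at least 0.5 in size was present at 3 members (11.1%) in control fruit, against 35.7% of all loci, and at 13 (48.1%) in 1-MCP fruit, against 23.7%. The shares of all loci include differences of 1 or more, which the rule kept out of the members. Of all loci, 88.8% differed by less than 1 in control fruit and 93.6% in 1-MCP fruit. 12 members (44.4%, against 13.4% of all loci) were higher with shelf life in control fruit and lower with it in 1-MCP fruit, and 5 (18.5%, against 19.4%) were the reverse. A further 4 (14.8%, against 15.5%) were higher and 6 (22.2%, against 51.7%) lower in both. By sign alone, the 2 treatments took opposite directions at 17 of the 27 loci (63.0%), against 32.8% of all loci. Some of these differences were close to no change, such as 0.04 in control and -0.0004 in 1-MCP fruit at MDP0000769354. Only MDP0000813577 had opposite differences of at least 0.5 in both treatments, and the matching share of all loci was not computed. The split by sign depends on the scaling. With 75th percentile and trimmed mean scaling 15 members were opposite, 8 higher in both and 4 lower in both. With quantile normalization the counts were 17, 6 and 4. All loci were opposite in 37.1% to 37.3% with the scalings. The rule bounded these differences, and they were not tested. CUFF.26327 had the largest decline in 1-MCP fruit (-0.92) and was nearly level in control fruit (-0.04). The difference between the treatments' shelf-life changes was not tested, since each group has 1 value.

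**Figure D4:**
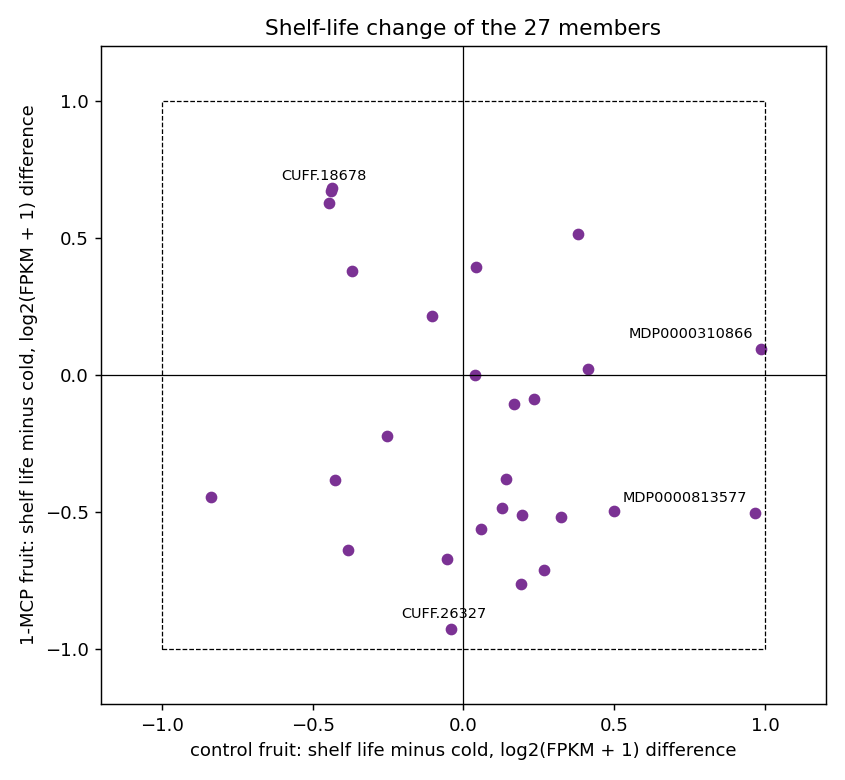
Difference of log2(FPKM + 1) between the end of shelf life and the end of cold storage for the 27 members, control fruit on the horizontal axis and 1-MCP fruit on the vertical axis; the dashed square is the limit of 1 set by the rule, and no error exists. 12 members lie in the lower right field (higher in control, lower in 1-MCP fruit) and 5 in the upper left, with MDP0000310866 and MDP0000813577 close to the right edge.

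Of the 27 members, 18 were assembled loci with a gene model (66.7%, against 77.6% of all loci that passed the filters) and the other 9 were gene models alone. Of the assembled loci, 2 carried several models (7.41% of members, against 1.75%). Among unannotated assembled loci, which have no gene model and were not eligible, 11 of 11977 met the same conditions. Of 543 loci with a gene model that were set apart because a group was listed at 0, 2 met the conditions on the differences.

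The threshold passes through a continuous range of values. Just inside it lay MDP0000310866 (1.522) and CUFF.13232 (1.523), both described above. Just outside lay CUFF.22156 (MDP0000568913), with a smallest rise of 1.46. It was at 153 FPKM at harvest, 627 and 921 FPKM in control fruit, and 651 and 425 FPKM in 1-MCP fruit. CUFF.28185 (MDP0000297821) had a smallest rise of 1.44, at 2.56 FPKM at harvest, 13.8 and 18.1 FPKM in control fruit, and 12.6 and 8.70 FPKM in 1-MCP fruit. For both loci only the 1-MCP value after shelf life missed the threshold. In total 12 loci missed only that condition, 9 only the one on 1-MCP fruit at 2 months, and 8 each only one of the 2 on control fruit.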

How the data were processed

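The authors deposited FPKM values (decimal commas), 1 column per group of 3 libraries. TopHat2, Cufflinks and Cuffdiff are named in the submitters' processing notes; their versions, the build and the annotation were not given in the sources used here. The prefix FPKM1 stands on 4 columns, per the file headers, without explanation, and the column of 1-MCP fruit after shelf life names no unit and was read as FPKM from its scale. Libraries were non-directional (TruSeq) with 100 bp reads, per the labels' protocols. Whether a column stands for all 3 libraries is not stated, and 0 value columns lacked a group.

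From these values log2(FPKM + 1) differences were computed with Python 3.11.15, numpy 2.4.6 and pandas 2.3.3. Loci entered with a gene model, a mean of at least 1 FPKM and no group at 0. The rule was tried on simulated data with rises well above the threshold, small added noise and no loci at low FPKM. That check does not cover members near the threshold or at low FPKM. The members, the lists and the size rule of 1 were chosen with earlier results of these data known. Named loci were the 2 at the end of each of 6 orders (mean FPKM, smallest rise largest and smallest, 1-MCP minus control in each direction, narrowest stored range with every stored group at 5 FPKM or more). The others were named to account for every member. Alternatives were 3 scalings (75th percentile, a mean of log ratios with 30% trimmed at each end, quantile normalization), pseudocounts, filters and limits. A fold change on the log2(FPKM + 1) scale understates loci at low FPKM.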

Additional observations from a re-analysis of the deposited data

Results flagged for a closer look

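MDP0000813577 was picked out because the same 7 days of shelf life went with opposite differences of at least 0.5 in the 2 treatments, the only such member. In control fruit it went from 8.82 to 18.2 FPKM (0.97 on the log2(FPKM + 1) scale) and in 1-MCP fruit from 8.48 to 5.69 FPKM (-0.50). The difference of the changes, 1-MCP minus control, was -1.47 and was not tested, since each group has 1 value. The locus lost membership under each of the 3 scalings. CUFF.9444 lay just under the limit, with 0.499 in control and -0.497 in 1-MCP fruit.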

How the results depend on the processing

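No paired analysis was possible because replicates have no values of their own in the table, so no replicate was left out either. The number of members (27) stayed within 1.5 times under 8 of 16 alternatives: 35, 34 and 36 under the 3 scalings, 27 with no filter on the mean, 25 with a mean of at least 5 FPKM, 29 with loci listed at 0 kept, and, both added after the data were seen, 38 with unannotated loci and 25 for loci that were members as deposited and under each scaling. The scalings lost MDP0000310866 and MDP0000813577, and 8 loci joined under all 3. The number moved to 45 with a pseudocount of 0.1, of which 25 were among the 27, and to 15 with one of 5, of which 14 were. It was 82 with a rise of at least 1, 6 with 2, 12 with shelf-life differences below 0.5, 51 without that limit and 15 with treatments within 1 of each other. Without a pseudocount, added later, it was 53. These limits change the count by construction, and so does the pseudocount, which weights loci at low FPKM. Of 64 recomputed medians 1 moved by more than 1.5-fold: that of 1-MCP over harvest at 2 months, to 1.55 with a pseudocount of 5. The 16 recomputed counts of members past 1 between treatments stayed within 1.5 times. The median treatment difference at 2 months (-0.04) became 0.25 with a mean of at least 5 FPKM or with loci listed at 0 kept. Of 100 values of named loci 2 moved, both at CUFF.13232 (smallest rise 2.19 and 0.68 with the smaller and larger pseudocount), and 0 changed sign among those of at least 1. Leaving out CUFF.25825 took the summed FPKM in control fruit to 2498.5 at 2 months and 2711 after shelf life.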

Other observations

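Under all 3 scalings 8 further loci met the conditions. CUFF.22156, described above, was the most abundant of them. CUFF.12740 (MDP0000776042) was at 48.4 FPKM at harvest, 230.5 and 128 FPKM in control fruit, and 269 and 158 FPKM in 1-MCP fruit. CUFF.9019 (MDP0000843303) was at 41.2 FPKM at harvest, 130.3 and 110.0 FPKM in control fruit, and 121 and 173 FPKM in 1-MCP fruit. CUFF.23079, which carries MDP0000874667 and MDP0000250546, was at 19.2 FPKM at harvest, 79.2 and 130 FPKM in control fruit, and 255 and 126 FPKM in 1-MCP fruit, and had a smallest rise of 1.99. As deposited it was left out by its shelf-life decline in 1-MCP fruit alone. Its identifier follows that of the member CUFF.23078; the file gives no position for either. These loci were chosen after their values were seen.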
